A study of Homo sapiens with 9 samples.

Results

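Ago-HITS-CLIP peaks that lay in coding exons and carried a seed match to miR-342-3p were examined in 231HM cells, a highly metastatic variant of the human triple negative breast cancer line MDA-MB-231. In this assay RNA is crosslinked by ultraviolet light to the Argonaute (Ago) protein that holds it, Ago is immunoprecipitated and the attached RNA fragments are sequenced. The wild-type cells received 20 nM of a negative control mimic or of a mimic of either strand, miR-342-3p and miR-342-5p, for 48 h, and 3 libraries were made per mimic, 9 in all. The authors deposited 1 list of peaks for each strand, called over the negative control with the 3 libraries of a mimic merged. The lists held 8460 peaks, of which 3450 belonged to miR-342-3p. A peak was included when its midpoint lay on its own strand in a coding exon and in no annotated 3′UTR, and when an 8mer, 7mer-m8 or 7mer-A1 match to the miR-342-3p seed lay within 50 nt of its summit. There were 312 such peaks, 9.04% of the miR-342-3p list (95% Wilson CI 8.13–10.05%) and 16.3% of its 1916 coding exon peaks (CI 14.7–18.0%).

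A miRNA guides Ago to mRNA mainly through its seed, the bases near its 5′ end, which pair with complementary sites. Most studied sites lie in 3′UTRs, where pairing leads to repression of translation and to mRNA decay. Sites in coding regions are also bound, and are passed over by translating ribosomes. An 8mer site pairs with bases 2 to 8 of the miRNA and has an A opposite base 1, a 7mer-m8 lacks this A, and a 7mer-A1 lacks the pair at base 8. The 8mer of miR-342-3p is GUGUGAGA, the 7mer-m8 is GUGUGAG and the 7mer-A1 is UGUGAGA. Among 19825 annotated coding sequences, 1 per gene, 2.79% held the 8mer, 9.43% held GUGUGAG, 11.7% held UGUGAGA and 17.3% held any of them, on the coding strand. Each 8mer contains both 7mers, so these shares overlap, whereas each peak below was assigned to its longest site type alone.

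The mature miRNA and sites under peaks are shown because the site type and its place in the reading frame recur in the results. Sites are written 5′ to 3′ as RNA on the strand of the gene, with GRCh37 coordinates. Capitals mark bases 2 to 8 of the miRNA, and in the mRNAs the 8mer or 7mer match. The mature sequence is from RefSeq, and the mRNA sequences were read from the GRCh37 genome.
hsa-miR-342-3p: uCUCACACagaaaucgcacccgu
EEF1G 8mer, chr11:62334878-62334907, minus strand: gaagugaaacuGUGUGAGAagauggcccag
TRIM28 8mer, chr19:59057185-59057214, plus strand: ucggagccucuGUGUGAGAccuguguagag
NAMPT 8mer, chr7:105903931-105903960, minus strand: auuuauaaugcGUGUGAGAaaauauggggu
TFRC 8mer, chr3:195800926-195800955, minus strand: ccaaaaacugaGUGUGAGAgacuggcagga
ITGB1 8mer, chr10:33200402-33200431, minus strand: caagggcaaacGUGUGAGAugugucagacc
ITGB1 7mer-m8, chr10:33200556-33200584, minus strand: aagugucguguGUGUGAGugcaaccccaa
ITGB5 8mer, chr3:124492563-124492592, minus strand: uuuggggagauGUGUGAGAagugccccacc
ITGB5 7mer-m8, chr3:124515453-124515481, minus strand: gucugcggccuGUGUGAGugcagccccgg
NCOA4 7mer-A1, chr10:51585154-51585182, plus strand: gugaugagaauUGUGAGAaggaggcucug
FASN 7mer-A1, chr17:80039898-80039926, minus strand: uggagcguaucUGUGAGAaacgccggcac
TUBB4B 7mer-A1, chr9:140137016-140137044, plus strand: gugcuggauguUGUGAGAaaggaggcuga
CDC6 8mer, chr17:38447557-38447586, plus strand: agaaucugcauGUGUGAGAcuauucaagca

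The best site was an 8mer in 102 of the 312 peaks (32.7%, CI 27.7–38.1%), a 7mer-m8 in 126 (40.4%, CI 35.1–45.9%) and a 7mer-A1 in 84 (26.9%, CI 22.3–32.1%). In 309 peaks there was 1 site around the summit, and only the peaks in ZNF322, FAT3 and C15orf39 had 2. The peaks lay in 285 genes and had 305 distinct nearest sites, since 7 pairs of neighbouring peaks shared a site. A single peak was found in 259 genes, 2 peaks in 25 genes and 3 in LAMC1. The 41 nt around the summit occurred unchanged in a transcript of another gene for 16 peaks (5.13%), among them those of EEF1G, NAMPT, ARPC3, RPL21 and the 8mer peak of ITGB1, so that reads of these peaks could belong to either gene.

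Each peak has a score, which the authors describe as the reads above background, and the lists begin at a score of 5. The score is 1 number for the merged libraries, so no spread between replicates could be computed, and depth per library is unknown. Peaks are not replicates of a condition, so that confidence intervals and exact tests here cover counting error only. The abundance of each mRNA in these cells was not measured here.

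The coding exon peaks with a site had a median score of 33 (quartiles 15 and 63.2, range 5 to 1126). The highest was in NCOA4, the receptor for autophagy of ferritin, with a score of 1126 over a 7mer-A1 in exon 9 of 12 (chr10:51585081-51585239). EEF1G, a subunit of the translation elongation factor that recharges eEF1A, followed with 746 over an 8mer in exon 6 of 10 (chr11:62334871-62334999). TRIM28, a co-repressor recruited by KRAB zinc finger proteins, had 709 over an 8mer in exon 3 of 17 (chr19:59057135-59057222). ITGB1, the integrin β1 subunit, had 671 over a 7mer-m8 in exon 14 of 18 (chr10:33200521-33200598). These 4 peaks held every site type, so the highest scores were not confined to 8mers.

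The rest of the 15 highest scores lay in genes of varied function. TUBB4B, a β-tubulin, had a score of 592 and FASN, the fatty acid synthase, had 559, both over a 7mer-A1. The cytoskeletal linker PLEC had 523 over a 7mer-m8, and NAMPT, the rate-limiting enzyme of NAD salvage, had 504 over an 8mer. The proteasome subunit PSMB3 had 385 over a 7mer-m8. The transferrin receptor TFRC had 347 and the lipid droplet protein PLIN2 had 335, both over an 8mer. PHF20L1 (318), the actin nucleation subunit ARPC3 (293) and the glucosidase II subunit PRKCSH (280) had a 7mer-A1, and HGS (269), a component of endosomal sorting, had a 7mer-m8. From this top group the scores fell quickly: 48 peaks (15.4%) scored above 100, 12 (3.85%) scored under 10 and 2 were at the minimum of 5.

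A score above 50 was used to compare peaks, because the study itself groups peaks at scores above 50 and above 100. It also lies well above the minimum of the lists. Of the coding exon peaks with a site, 96 (30.8%, CI 25.9–36.1%) scored above 50, against a background of 24.1% of all 3450 peaks, and 15.4% against 10.8% scored above 100. Coding exon peaks without a site had a median score of 23 (quartiles 13 and 47.2), and 375 of 1604 (23.4%) scored above 50. The difference was 7.39 percentage points (Newcombe CI 2.08–13.1), with p = 0.00633 by a two-sided Fisher's exact test and p = 0.0165 after Benjamini-Hochberg adjustment over the 13 tests made. Coding exon peaks whose best site was a 7mer had a share of 23.8%, close to that without a site, and those with an 8mer had 45.1%. Peaks with a site in 3′UTRs also had a median of 33, and 94 of 275 (34.2%) scored above 50. The difference was −3.41 points (CI −10.97 to 4.14, exact p = 0.426, adjusted p = 0.554), so a difference between coding exons and 3′UTRs was not resolved at these numbers.

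Within the coding exon peaks the score moved with the site type. The median was 47 (quartiles 20 and 88) for the 102 peaks with an 8mer, 28 (16 and 50) for the 126 with a 7mer-m8 and 25.5 (12 and 50) for the 84 with a 7mer-A1. Scores above 50 were found for 46 peaks with an 8mer (45.1%) and for 50 of 210 with a 7mer (23.8%). This difference of 21.3 points had a CI of 10.1–32.3 (exact p = 0.00023, adjusted p = 0.00098). At a score above 100 it was 9.19 points and did not pass the threshold after adjustment (Fisher's exact test, adjusted p = 0.096). An 8mer was less frequent among these peaks than among 3′UTR peaks with a site, of which 117 of 275 (42.5%) had one. The difference was −9.85 points (CI −17.6 to −2.01, exact p = 0.0166, adjusted p = 0.0359), and it lost the call when coding exons were placed before 3′UTRs (−8.25 points) or when sites were sought in the whole peak (−8.76 points).

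**Figure D1:**
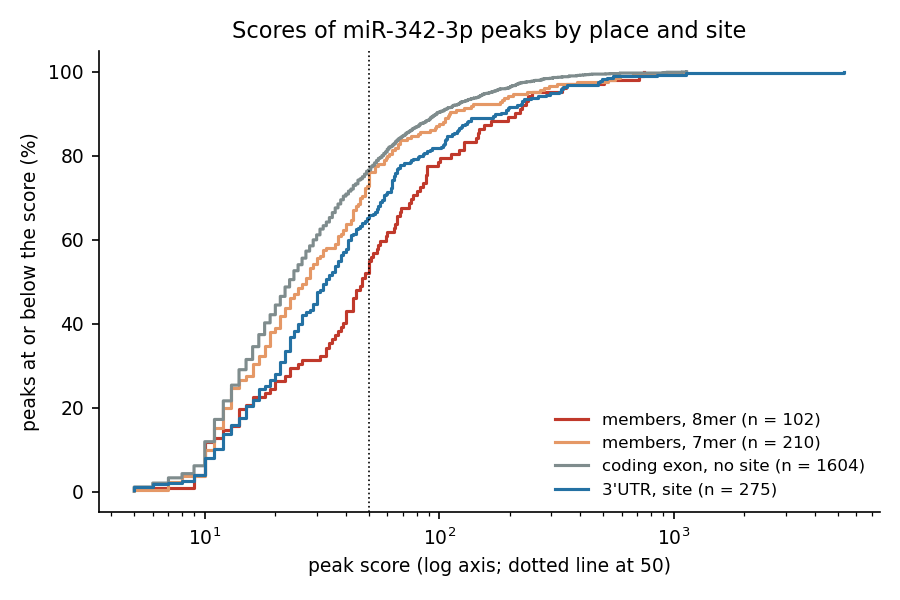
Cumulative share of miR-342-3p peaks (vertical axis, %) at or below a score (horizontal axis, logarithmic, reads above background of the merged libraries) for coding exon peaks with an 8mer (n = 102) or a 7mer (n = 210), called members in the key, coding exon peaks without a site (n = 1604) and 3′UTR peaks with a site (n = 275). At the dotted line, a score of 50, the 8mer curve is the lowest, since 45.1% of those peaks lie beyond it against 23.8% of those with a 7mer and 23.4% of those without a site.

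The choice of peaks, here and for the 3′UTR peaks compared below, required a site within 50 nt of the summit. Within that window, sites lay close to the summits and mostly 3′ of them. The centre of the nearest site was at a median of 4 nt 3′ of the summit (quartiles −2 and 10). It was within 5 nt for 123 peaks (39.4%) and within 25 nt for 288 (92.3%). The site lay on the 3′ side in 202 peaks (64.7%), on the 5′ side in 104 (33.3%) and at the summit in 6. The distances fell into a pair of groups, with 66 peaks (21.2%) from −2.5 to 2.5 nt and 87 (27.9%) from 7.5 to 12.5 nt, against 48 (15.4%) between them. PSMB3 and NUP93 had the site centred on the summit, and NCOA4 had it 12 nt downstream. The 3′UTR peaks showed the same shape, with 20.7% and 27.6% in these bins and a median of 4 nt. A site centred within 10 nt was found for 221 coding exon peaks (70.8%) and 184 3′UTR peaks (66.9%), a difference of 3.92 points that did not pass the test (CI −3.55 to 11.4, exact p = 0.326, adjusted p = 0.471). At the edge of the window, 12 peaks had a site that ended 41 to 50 nt from the summit, with scores of 5 to 185 and a median of 18.5. A further 12 coding exon peaks with a site ending 51 to 60 nt away were not included, with scores of 12 to 236 and a median of 29.

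**Figure D2:**
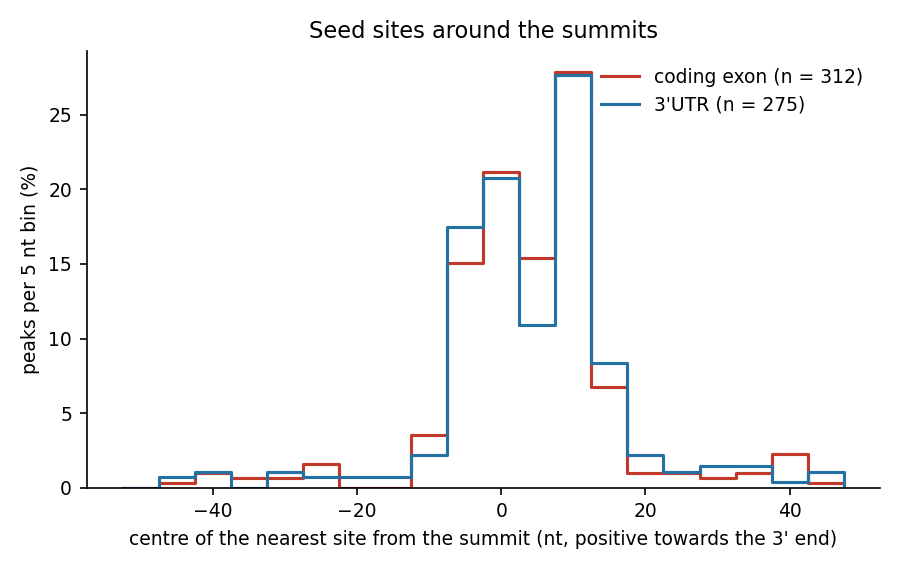
Share of peaks per 5 nt bin (vertical axis, %) by the distance of the centre of the nearest seed site from the summit (horizontal axis, nt, positive towards the 3′ end) for coding exon peaks with a site (n = 312) and 3′UTR peaks with a site (n = 275). In both lines the bin from 7.5 to 12.5 nt is the highest, at 27.9% and 27.6%, with a second maximum at the summit.

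The nearest site was wholly inside the peak for 288 peaks and wholly inside a coding exon for 293. For another 14 peaks it crossed the end of a coding exon, for 4 it lay in an intron and for 1 in a 5′UTR, as the window of 50 nt could reach beyond the exon of the midpoint. The second peak of FASN, with a score of 53, was 1 of those whose site lay in the adjoining intron. The peaks had a median width of 70 nt (quartiles 57 and 90), against 61 nt for coding exon peaks without a site and 78 nt for 3′UTR peaks with a site. Runs of alternating G and U, which overlap the GUGUG of the site, were short in coding exons. The longest run in the window had a median of 5.5 nt and was at most 11 nt, so that 0 of 312 windows held a run of at least 12 nt, which allows a share of up to 0.962% by the limit of 3 counts and 1.22% by the upper Wilson bound. Such runs were found in 44 of 275 3′UTR windows with a site (16.0%, difference −16.0 points, CI −20.8 to −12.0, exact p = 4.5e-16, adjusted p = 5.8e-15), where the longest had 45 nt. They were found in 6 of 1604 coding exon windows without a site (0.374%, exact p = 0.598, adjusted p = 0.647).

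The position of a site in the reading frame sets the amino acids it can encode. With the base opposite base 8 of miR-342-3p at the first codon position, the site would contain an in-frame UGA stop. At the second position it gives a GUG valine codon followed by a codon that begins with AG, and at the third a UGU cysteine codon followed by a GAG glutamate codon. The frame could be read at the nearest site of 289 peaks, and a site shared by neighbouring peaks was counted for each of them. As the stop codon requires, 0 of these peaks had the first position. The second position was found in 84 peaks (29.1%) and the third in 205 (70.9%, CI 65.5–75.9%). EEF1G, TRIM28, NAMPT, TFRC, NCOA4 and FASN, and both sites of ITGB1 and of ITGB5, used the cysteine-glutamate frame. TUBB4B and CDC6, a licensing factor of DNA replication, used the valine frame. By the type of the site, the third position was used in 80 of 98 peaks with an 8mer (81.6%). It was used in 77 of 110 with a 7mer-m8 (70.0%) and 48 of 81 with a 7mer-A1 (59.3%). Coding sites without a peak, in the genes chosen below, used it in 37 of 44 8mers (84.1%) and 308 of 462 7mers (66.7%). The higher share for 8mers was thus not confined to sites with a peak, and the difference between site types was not tested. The sites of the peaks were spread along the coding sequence, with a median position of 52.0% of its length. Those of 86, 103 and 104 of 293 peaks lay in its first, middle and last parts of equal length.

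Not every site in a coding exon had a peak, and the share that did was measured in genes chosen without the miR-342-3p list. These were the 2428 genes with any miR-342-5p peak between the ends of a transcript on its strand, introns included. Of these, 2303 had a coding transcript and could hold sites. A peak in an intron does not show that the mRNA was seen, and the lists share their negative control libraries. A site was called occupied when it lay wholly within 50 nt of a miR-342-3p summit. In coding exons, 31 of 78 8mers (39.7%, CI 29.6–50.8%), 39 of 244 7mer-m8 sites (16.0%) and 30 of 295 7mer-A1 sites (10.2%, CI 7.22–14.1%) were occupied. The occupied sites had median scores of 55, 38 and 34.5 in this order. The 8mers exceeded the 7mers, of which 69 of 539 were occupied (12.8%), by 26.9 points (CI 16.4–38.3, exact p = 5.4e-08, adjusted p = 3.5e-07).

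The same count was made in the 3′UTRs of these genes. There, 37 of 123 8mers (30.1%), 60 of 486 7mer-m8 sites (12.3%) and 7 of 379 7mer-A1 sites (1.85%, CI 0.897–3.76%) were occupied. For 8mers the coding exons were 9.66 points higher, which did not pass the test (CI −3.63 to 23.0, exact p = 0.171, adjusted p = 0.278). For 7mers they were 5.06 points higher, 12.8% against 7.75% (CI 1.82–8.53, exact p = 0.00217, adjusted p = 0.00704). When the 7mers were separated, a division made after seeing the data, the difference was 8.32 points for 7mer-A1 sites (exact p = 3.4e-06, adjusted p = 1.5e-05) and 3.64 points for 7mer-m8 sites (exact p = 0.207, adjusted p = 0.337). Most coding exon peaks (1604 of 1916) had no site, and how often a summit lies near a site by chance was not measured in either place. All annotated 3′UTRs were counted, whether or not the cells used them. The differences are thus in nearness to a summit and do not show that coding sites were bound more often.

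**Figure D3:**
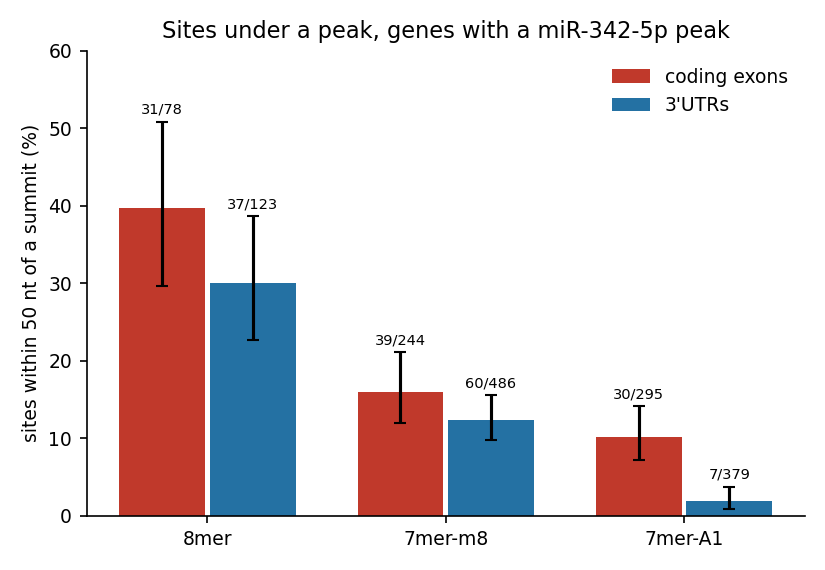
Share of seed sites within 50 nt of a miR-342-3p summit (vertical axis, %) by site type for coding exons and 3′UTRs. Sites are those of the 2303 genes with a coding transcript among the 2428 that had any peak of miR-342-5p. Error bars are 95% Wilson intervals, and the numbers of occupied and all sites are above the bars. The 8mer bars are the highest in both places (39.7% and 30.1%), and the 7mer-A1 bars are at 10.2% in coding exons and 1.85% in 3′UTRs.

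Occupied and unoccupied coding sites were then compared for features beyond the site. The valine frame was used by 22 of 98 occupied sites with a known frame (22.4%) and 161 of 506 unoccupied ones (31.8%). The difference of −9.37 points did not pass the test (CI −17.6 to 0.635, exact p = 0.0718, adjusted p = 0.133). Among 8mers, the cysteine-glutamate frame was used by 28 of 31 occupied sites (90.3%) and 37 of 44 unoccupied sites (84.1%). Among 7mers it was used by 48 of 67 occupied (71.6%) and 308 of 462 unoccupied sites (66.7%). The frame was not tested by site type. The part of the coding sequence beyond 66.7% of its length held 30 occupied sites (30.6%) and 167 unoccupied sites (33.0%), a difference of −2.39 points (CI −11.7 to 8.10, exact p = 0.724). Additional pairing, taken as 4 consecutive pairs with bases 12 to 17 of the miRNA within 20 nt 5′ of the site, was found at 10 occupied sites (10.2%) and 43 unoccupied sites (8.50%, difference 1.71 points, CI −3.63 to 9.57, exact p = 0.561, adjusted p = 0.647). The median share of A and U in the 30 nt on either side of the site was 45.0% in both classes. For 8mers alone it was 46.7% at occupied and 42.5% at unoccupied sites.

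In the 285 genes with a coding exon peak over a site, all annotated sites were counted as a description, since these genes were chosen by such a peak. Their coding exons held 398 sites, of which 288 were occupied and 110, in 73 genes, were not. For 8mers this was 98 of 108. Their 3′UTRs held 105 sites, of which 5 were occupied. In 3′UTRs, a peak of miR-342-3p was found in 25 of the 285 genes (8.77%), over a site in 5 (1.75%), against 110 of the 1075 genes whose coding exon peaks all lacked a site (10.2%). A further coding exon peak without a site was found in 99 of the genes (34.7%). The matching share among other genes was not counted, so this is not a trait of these genes.

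The genes were grouped by function to describe where the peaks lay. Lists of genes were set against the 1360 genes with any coding exon peak, of which 285 (20.96%) had 1 over a site. The median score over all such peaks was 33. These counts describe the lists, no test was made of them, and with few peaks per list they show no trait of a list.

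Among integrin, laminin, collagen and thrombospondin genes, 7 of 16 genes with a coding exon peak (43.8%) had 1 over a site. They held 13 peaks with a median score of 47 (range 12 to 671) against 33 over all 312. An 8mer was found in 5 of the 13 and a score above 50 in 4, where the shares over all 312 peaks were 32.7% and 30.8%. Integrin β subunits, which pair with α subunits as receptors for matrix, made up 6 of the peaks. ITGB1 had a pair in exon 14, with scores of 671 and 222. ITGB5 had 197 in exon 10 and 148 in exon 11, and ITGB4, which anchors cells to laminin, had 47 and 12. The α subunit ITGA3 had 37 over an 8mer. LAMC1, the laminin γ1 chain, had 3 peaks over 7mer-A1 sites in exons 12, 14 and 15, with scores of 50, 19 and 50, and the β2 chain LAMB2 had 36. THBS1, a matrix glycoprotein, had neighbouring peaks of 25 and 20 that shared an 8mer.

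Proteins with EGF-like or similar repeats, modules rich in cysteine, had a peak over a site in 7 of 13 genes (53.8%). They held 8 peaks with a median score of 20 (range 10 to 40). FBN1, the main protein of microfibrils, had 40, but its site reached the edge of the window, and the cadherin FAT3 had 34 over an 8mer. The Notch ligand JAG1, which the study names, had peaks of 26 and 10 over 7mer-A1 sites in exons 12 and 6. The heparan sulfate proteoglycan AGRN had 18, the matrix protein TNC 13 and LTBP4, which binds latent TGF-β, 11.

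Splicing factors and RNA helicases had a peak over a site in 11 of 28 genes (39.3%). Their median score of 81.5 over 12 peaks (range 10 to 249) was the highest among lists with at least 3 peaks, and 7 peaks scored above 50. PRPF8, the core protein of the spliceosome, had 249 over an 8mer in exon 25 of 43. The helicases DDX49 (197) and DHX32 (128) also had an 8mer, and DHX9 had 111 over a 7mer-m8 in exon 2 of 28. The splicing regulator HNRNPM had 106 over a 7mer-A1 in the valine frame. PRPF6, a protein of the tri-snRNP, had 96 and 21.

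**Figure D4:**
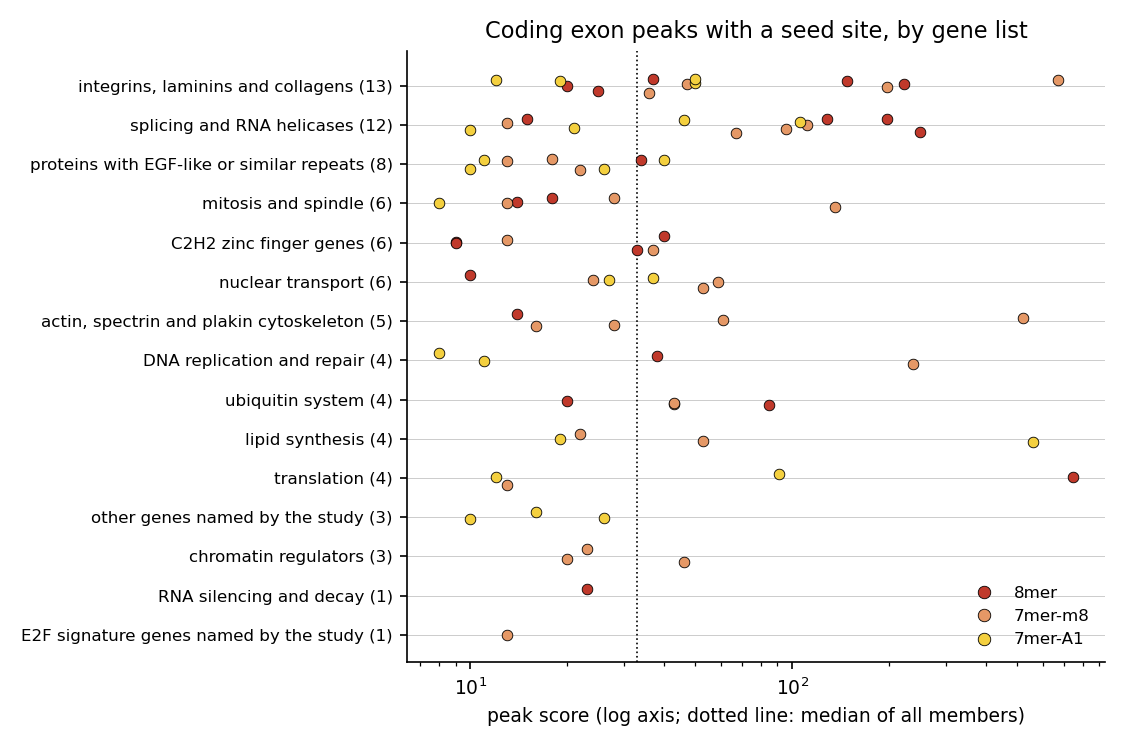
Score (horizontal axis, logarithmic, reads above background) of each coding exon peak with a site in the gene lists, with the number of peaks in parentheses, the best site in colour and the median of all 312 peaks (33) as a dotted line. Points are spread vertically only to separate them, and the splicing list has the largest number of peaks above 50, at 7 of 12.

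The E2F list held only 15 signature genes that the study names, and not the whole signature. Of these, 9 had a coding exon peak, and only KIF4A, a chromosome-bound kinesin, had 1 over a site. Its score was 13 over a 7mer-m8 in exon 26 of 31. Other genes of the signature were not counted, so this does not describe the signature as a whole. Genes of mitosis and the spindle had a peak over a site in 5 of 16 (31.2%). The condensin II subunit NCAPD3 had 136, the midzone protein PRC1 28, CLASP1, which stabilises microtubules, 18, and the kinesin KIFC1 had 14 and 8. In DNA replication and repair, 4 of 13 genes had such a peak. PRKDC, the catalytic subunit of DNA-PK, had 237, CDC6 had 38, and the helicase subunits MCM6 and MCM4 had 11 and 8. ESYT2, a tether between the endoplasmic reticulum and the plasma membrane that the study names, had a score of 16 over a 7mer-A1 at 45 nt from the summit.

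The remaining lists had between 1 and 6 peaks. Of genes of nuclear transport 5 of 16 had a peak over a site, with 59 in NUP133, 53 in NUP93, 37 and 24 in NUP188, 27 in the exportin XPO1 and 10 in NUP85. Among translation genes 4 of 27 did (14.8%), and beside EEF1G these were the ribosomal protein RPL21 (91), the eIF2α kinase EIF2AK1 (13) and EIF5 (12). The sequence around the RPL21 summit occurred in 20 other genes. C2H2 zinc finger genes, whose repeats resemble each other, had such a peak in 5 of 24 (20.8%). ZNF322 had 40 and 33, ZBTB48, a telomere-binding protein, had 37, and ZNF142, ZNF221 and ZNF212 had 13, 9 and 9. Cytoskeletal genes had 4 of 18, with PLEC (523), the integrin activator TLN1 (61), the myosin MYO6 (28) and desmoplakin DSP (16 and 14). The ubiquitin list had 4 of 20, with the deubiquitinase USP38 at 85, UBR4 and CUL3 at 43 and CUL7 at 20. Chromatin regulators had 3 of 21, namely KMT2C (46), BPTF (23) and KMT2D (20). Lipid synthesis had 3 of 8, among them FASN and SREBF1 (19), a transcription factor that activates genes of this pathway. RNA silencing and decay had only SMG5, a factor of nonsense-mediated decay, with 23.

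Genes with more than 1 peak over a site were spread beyond these lists. PRKCSH had 280 and 185, and ARPC3 had 293 and 7, but in each the neighbouring peaks shared 1 site. RNH1, the ribonuclease inhibitor, had 210 and 40, and RPA1, which binds single-stranded DNA, had 110 and 49. TGFBR2, the type II receptor of TGF-β, had 100 and 23 over different 7mer-A1 sites in exon 3 of 8, the first in the valine and the second in the cysteine-glutamate frame. TP53BP1, a mediator of the DNA damage response, had 68 and 43. HDLBP, an RNA-binding protein of KH domains, had 63 and 50. CRIM1, a membrane protein with cysteine-rich repeats, had 55 and 48, and ITPR3, a calcium channel of the endoplasmic reticulum, had 44 and 16.

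The miR-342-5p list, called over the same control libraries, also held peaks at some of these positions. An overlap of 1 nt or more with a peak of miR-342-5p, strand included, was found for 6 of the 312 peaks (1.92%), against a background of 2.2% of all 3450. The proteasome subunit PSMB7 had a score of 99, against 30 for its miR-342-5p peak, and the glucose transporter SLC2A1 had 97 and 58. SEMA4B had 77 and 46, the phosphatase receptor PTPRF 53 and 11, VAPB 13 and 10, and HELZ2 11 and 9. All 6 scores were higher in the miR-342-3p list, but the peaks were chosen from that list by a miR-342-3p site. The lists were also called separately, and scores between them were not tested.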

How the data were processed

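The authors sequenced Ago-HITS-CLIP libraries from 231HM cells after immunoprecipitation with an antibody to Ago2. Per the labels and the submitters' processing notes, reads were trimmed with cutadapt 1.13, mapped to hg19 with TopHat2 2.0.13, collapsed with UMI-tools and called as peaks with MACS2 2.1.1.20160309, on each strand and with replicates merged. The 2 deposited lists hold positions, a score and a summit. The score is a whole number of reads above background, with a minimum of 5 in the deposited files. How libraries were scaled to each other is not given in the sources used here. Depth per library is unknown, and no test between samples was possible.

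Starts were read as 0-based and are printed 1-based on GRCh37, to which hg19 corresponds. Midpoints were placed on basic protein-coding transcripts of GENCODE release 44 mapped to GRCh37, with 3′UTRs before coding exons. Sites had to lie within 50 nt of the summit, strand included. Shares were compared with two-sided Fisher's exact tests, adjusted over 13 tests by Benjamini-Hochberg with a threshold of 0.05, with 95% Wilson and Newcombe intervals. Tests treat peaks or sites as independent. Genes were named by a rule: the 15 highest scores, genes with several peaks, up to 5 peaks per gene list, overlaps with miR-342-5p peaks and genes the study names. The values of 1 gene under this rule are not reported here. The peaks and lists were chosen with earlier results of these data known. The search and tests were checked on simulated data. Alternatives were other score minimums, windows, rules of location and choices of genes. The tools were samtools 1.23.1, pysam 0.24.0, scipy 1.17.1, numpy 2.4.6, statsmodels 0.14.6, pandas 2.3.3, matplotlib 3.10.9 and Python 3.11.15.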

Additional observations from a re-analysis of the deposited data

How the results depend on the processing

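Of 87 values recomputed under alternatives, 81 were classed as unchanged, for a difference by its direction and its side of the threshold. This class also held counts of the peaks, which have no direction or test. Such counts were 232 with only the highest peak of each gene and 382 with 6mers added. It also held the difference in GU runs from coding exon peaks without a site, which was 0 at runs of at least 20 nt. The lower share of 8mers than in 3′UTR peaks lost the call with sites sought in the whole peak (−8.76 points) and with coding exons placed before 3′UTRs (−8.25 points). The higher share of high scores with an 8mer than with a 7mer was 9.19 points and lost the call at a score above 100. With 8mers alone there were 102 peaks. The higher occupancy of 7mers in coding exons than in 3′UTRs lost the call for 7mer-m8 sites alone (3.64 points), an alternative added after seeing the data. The share of occupied sites in the last part of the coding sequence turned to 0.447 points higher when genes with any miR-342-3p peak were used, and did not pass the test in either form. The cause of these changes was not tested. No paired analysis was possible because the lists merge the replicates. For the same reason no replicate could be left out, and a site without a peak can be a site not bound or an mRNA too rare to give 5 reads, which cannot be told apart.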

Other observations

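Further genes on none of the lists, picked here by name after their values were seen and standing for no group, also had coding exon peaks over a site. HIF1A, the oxygen-regulated transcription factor, had a score of 109 over a 7mer-m8 in exon 2 of 15 in the valine frame. The kinase MTOR had 58, and RICTOR, a subunit of its second complex, had 39. IGF1R, the receptor of insulin-like growth factors, had 54 over an 8mer. Of the signal transducers of TGF-β, SMAD2 had 31 over an 8mer and SMAD3 had 17. CDK4, the cyclin D kinase that phosphorylates RB1, had 43 over an 8mer in the valine frame. The receptor chains IFNGR1, IL4R, IL6ST and IFNAR1 had 50, 30, 10 and 10.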
